A study of Mus musculus with 17 samples.

Results

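The 10 genes described here make milk proteins and the milk fat globule, or carry the prolactin signal that turns them on. They were taken by symbol from the platform annotation, with the brightest probe set where a gene has several. They comprise the caseins Csn2 and Csn3, the whey protein gene Wap, the fat globule genes Xdh, Btn1a1 and Mfge8, the transcription factor genes Stat5a, Stat5b and Elf5, and Prlr, which encodes the prolactin receptor. Of the 10 genes, 9 were measured, each by 1 probe set, among 19938 genes in all. Prlr was not analysed here.

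The 3134 cells used are mouse mammary epithelial cells that grow in culture without limit, and about 100 ng of their total RNA went onto each of 17 Affymetrix Mouse Gene 1.0 ST arrays. All cells carried a tetracycline-regulated transactivator and were kept in 5 µg/ml tetracycline, which holds it off, until they were plated for 48 h in charcoal-dextran-treated serum. Cells plated without the drug are called induced and cells plated with it repressed. The dnBrg1, dnChd4 and dnSnf2h lines each had 2 induced and 2 repressed arrays, and the control line had 3 induced and 2 repressed arrays. Removal of the drug switched on the transactivator with a Flag-tagged dominant-negative Brg1, Chd4 or Snf2h from a stably integrated construct, and in the control line the transactivator alone. These proteins are the motors of the SWI/SNF, NuRD and ISWI chromatin remodeling complexes. The labels do not say whether a line is a single clone or whether replicates came from separate cultures. The p-values therefore cover the spread between these arrays alone, which may be technical. The protocols name no hormone added to the medium.

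In the mammary gland, prolactin binds its receptor and activates the kinase JAK2, which phosphorylates STAT5A and STAT5B. The STAT5 proteins then bind the promoters of milk protein genes together with the glucocorticoid receptor and C/EBP factors, and ELF5 cooperates in the secretory cells. Milk fat leaves the cell as droplets wrapped in plasma membrane, in which xanthine dehydrogenase and butyrophilin are main proteins. Cultured mammary cells generally need prolactin, glucocorticoid, insulin and a basement membrane to make caseins.

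Promoters from RefSeq (GRCm38.p6) were matched by symbol for 6 of the 9 measured genes, and 3 are shown because they set a casein and a whey protein gene with dim signals beside a fat globule gene with a bright one. Each run has 300 bases, 250 before and 50 after the transcription start. Capitals mark matches to the STAT motif TTCNNNGAA in Csn2 and Wap, and to that motif or the GC box GGGCGG on either strand in Mfge8.
Csn2, chr5:87699376-87699675, minus strand: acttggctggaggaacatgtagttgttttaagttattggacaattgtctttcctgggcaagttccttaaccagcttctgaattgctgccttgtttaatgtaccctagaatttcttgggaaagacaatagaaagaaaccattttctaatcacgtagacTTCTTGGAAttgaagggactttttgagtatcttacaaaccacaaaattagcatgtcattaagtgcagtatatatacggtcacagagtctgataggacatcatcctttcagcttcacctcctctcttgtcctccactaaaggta
Wap, chr11:6638600-6638899, minus strand: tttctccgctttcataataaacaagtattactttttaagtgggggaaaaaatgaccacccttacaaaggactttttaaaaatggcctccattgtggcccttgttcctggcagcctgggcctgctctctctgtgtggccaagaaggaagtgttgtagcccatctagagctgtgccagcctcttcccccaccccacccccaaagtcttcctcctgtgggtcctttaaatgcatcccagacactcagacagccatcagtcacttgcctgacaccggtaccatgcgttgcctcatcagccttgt
Mfge8, chr7:79149011-79149310, minus strand: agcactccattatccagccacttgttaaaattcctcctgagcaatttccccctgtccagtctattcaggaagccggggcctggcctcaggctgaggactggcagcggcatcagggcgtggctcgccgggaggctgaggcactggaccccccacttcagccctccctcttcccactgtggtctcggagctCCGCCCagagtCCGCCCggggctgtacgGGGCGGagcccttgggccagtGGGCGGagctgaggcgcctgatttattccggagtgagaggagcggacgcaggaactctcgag
The Csn2 run held 1 STAT motif, TTCTTGGAA, whose first base lies at -93 from the start, and 8.3% of 32851 mouse promoters of this length held at least 1. The Wap run held no match. The Mfge8 run held 4 GC boxes, at -61, -50, -33 and -12. At least 1 GC box was held by 35.7% of promoters, and the share with as many as 4 was not counted. None of these 3 runs held the glucocorticoid receptor motif TGTTCT, which 19.0% of promoters hold on either strand. GC content was 38.7% for Csn2, 50.3% for Wap and 64.3% for Mfge8, against a median of 52.7% over all promoters. CpG dinucleotides numbered 2, 3 and 17 in the same order, against a median of 7. The promoters of Elf5, also a gene with dim signals, had GC contents of 60.7% and 55.3% and held 3 and 10 CpG dinucleotides. Whether base composition goes with signal was not tested. A match is a description of the letters in this window and not a site of binding.

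Before the results, 2 libraries of the control line stood apart from their labels. Across genes, the difference between the library labelled control repressed replicate 1 and control repressed replicate 2 correlated at r = 0.798 with the induction averaged over the 3 dominant-negative lines. The library labelled control induced replicate 1, minus replicates 2 and 3, correlated with it at -0.815 and -0.817, and replicate 2 minus 3 at -0.0121. Within each dominant-negative group, replicate 1 minus 2 was set against the induction averaged over the other dominant-negative lines only. These correlations lay between -0.0982 and 0.149. Contrasts within the dominant-negative lines were therefore fitted on their 12 arrays, and contrasts with the control line on all 17, with 15 arrays (without both libraries) as an alternative. Chd4, the gene behind dnChd4, had 12.27 and 12.27 in induced dnChd4 cells, against 10.56 and 10.35 in repressed dnChd4 cells, a rise of 1.82 (adjusted p = 1.43e-07). Smarca4, which encodes Brg1, changed by 0.12 in dnBrg1 cells (adjusted p = 0.615), and Smarca5, which encodes Snf2h, by -0.24 in dnSnf2h cells (adjusted p = 0.209). Neither change passed, and whether these probe sets match the constructs' sequences was not tested.

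All values are log2 signals as deposited. Probe sets of different genes respond differently, so levels of different genes were not ranked. The dim end of the scale was marked on each array by 1190 odorant and vomeronasal receptor genes, presumed silent here. Their means over the 17 arrays had a median of 3.51 and a 5th to 95th percentile range of 2.84 to 4.93, and a signal is called above them when it exceeds that array's own 95th percentile, which lay between 4.81 and 5.04. Genes count as called when limma's Benjamini-Hochberg adjusted p over all 19938 genes is under 0.05.

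**Figure D1:**
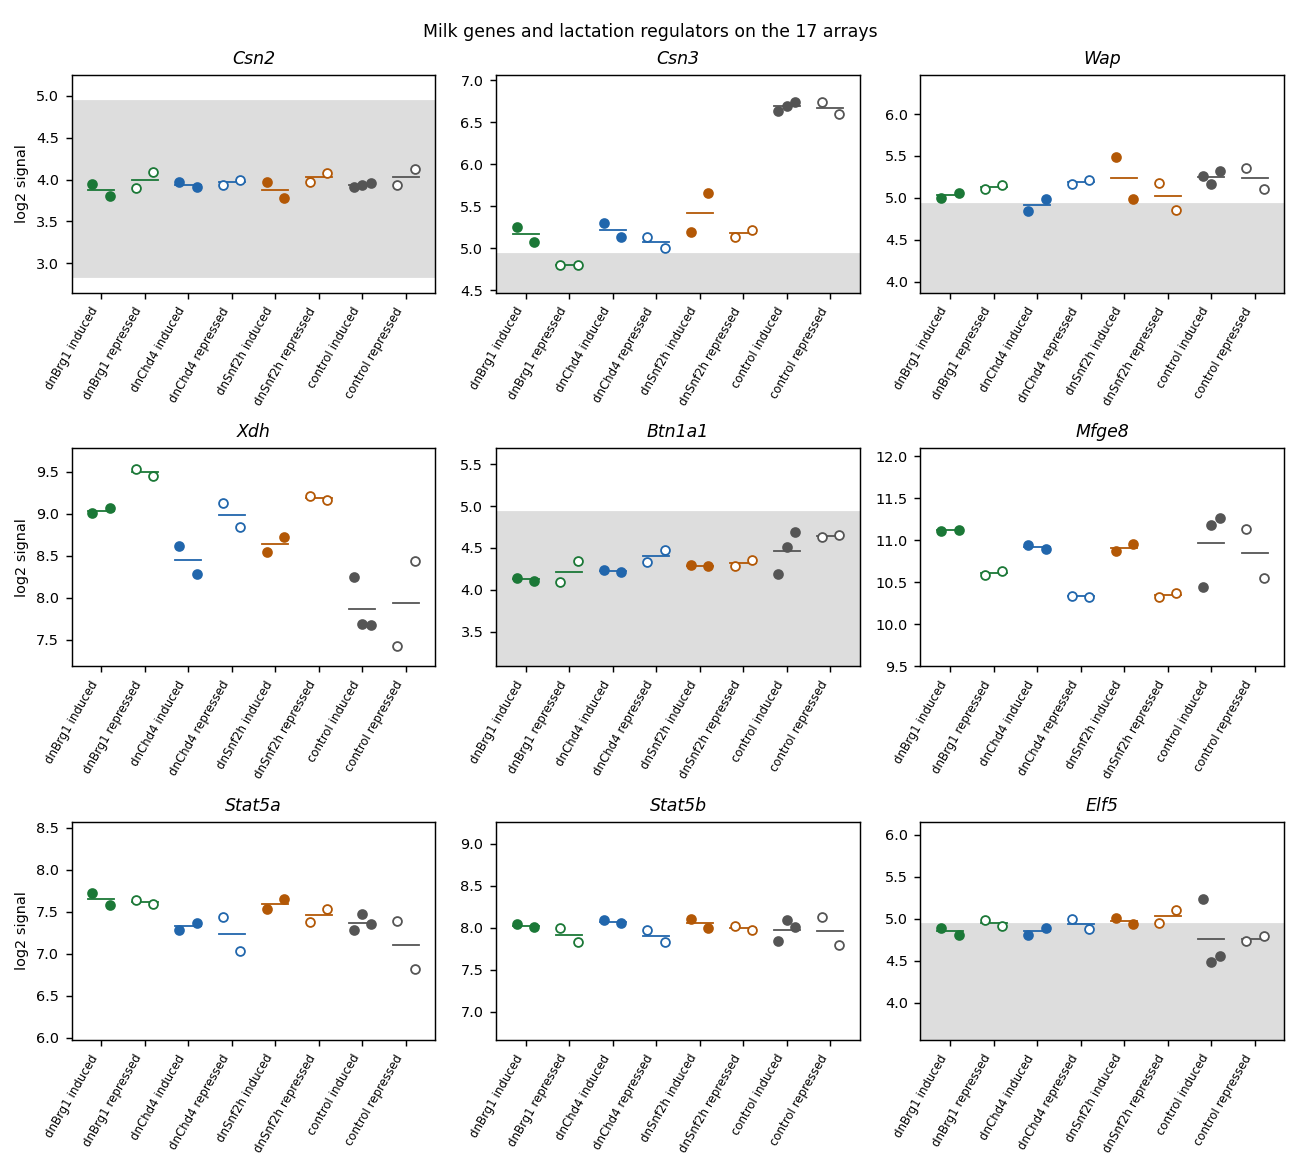
Log2 signal of the 9 measured genes on the 17 arrays, with induced (filled) left of repressed (open) cells in each line; bars are group means and grey marks 2.84 to 4.93, the 5th to 95th percentile of the presumed silent receptor genes. Each panel has its own range: Xdh is lower and Mfge8 higher in induced cells of the 3 dominant-negative lines, and Csn3 is highest in the control line.

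Csn2 encodes beta-casein, a main protein of mouse milk. Its signal was 3.95 and 3.80 in induced dnBrg1 cells, against 3.90 and 4.09 in repressed ones. It was 3.97 and 3.91 in induced dnChd4 cells, against 3.94 and 4.0 in repressed ones. In dnSnf2h cells it was 3.97 and 3.78 when induced, against 3.97 and 4.08 when repressed. The groups overlapped in dnBrg1 and dnChd4 cells, and in dnSnf2h cells the induced arrays lay lower only past the second decimal. In the control line Csn2 ran from 3.91 to 3.96 on the 3 induced arrays, against 3.93 and 4.12 on the repressed arrays. All 17 values lay between 3.78 and 4.12, on no array above the receptor genes. The changes on induction were -0.12, -0.03 and -0.15 (95% intervals -0.34 to 0.10, -0.25 to 0.19 and -0.37 to 0.07), and none passed the test. The neighbouring alpha-casein genes of the same cluster on chromosome 5 also exceeded the receptor genes on no array, with means of 3.47 for Csn1s1, 3.39 for Csn1s2a and 3.86 for Csn1s2b.

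Csn3 encodes kappa-casein, which coats casein micelles and keeps them in solution. It separated the lines more than any other of these genes: its 8 group means spanned 1.89. Csn3 had signals of 5.26 and 5.08 in induced dnBrg1 cells, against 4.80 and 4.80 in repressed dnBrg1 cells. In dnChd4 cells it had 5.30 and 5.14 when induced, against 5.13 and 5.01 when repressed. In dnSnf2h cells it had 5.19 and 5.66 when induced, against 5.14 and 5.22 when repressed. The control line stood above all of these, at 6.63, 6.70 and 6.74 when induced and at 6.74 and 6.60 when repressed. The 12 arrays of the dominant-negative lines ended at 5.66, below the lowest control array at 6.60. Csn3 exceeded the receptor genes on 15 of the 17 arrays, and both repressed dnBrg1 arrays, at 4.80, lay below the lowest array cut of 4.81. Differences against that group are therefore differences from a signal within the receptor genes.

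The mean of the 6 dominant-negative groups was lower than that of the 2 control groups by 1.54 for Csn3 (SE 0.073, 95% interval -1.69 to -1.38, adjusted p = 5.66e-08). This comparison was added after the values had been seen, and 32.0% of all genes pass it. Without the 2 libraries in doubt the difference was -1.51. Each line was derived separately, so the construct and the derivation of a line cannot be told apart. Among 1659 genes bright and variable enough to compare, the patterns most like that of Csn3 belonged to Rhpn2, Rtn4rl2 and Etv4. Their root mean square differences from Csn3 over the 17 centred arrays were 0.237, 0.344 and 0.354. Rhpn2 ran from 6.03 to 6.99 in the dominant-negative lines, against 7.41 to 8.0 in the control line. Etv4, which encodes an ETS transcription factor, ran from 5.93 to 6.61 in the dominant-negative lines, against 7.15 to 7.72 in the control line.

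On induction, Csn3 changed by 0.37 in dnBrg1 cells (SE 0.131, 95% interval 0.09 to 0.65, adjusted p = 0.0779), where the induced arrays lay above the repressed ones. The change was 0.15 in dnChd4 cells and 0.25 in dnSnf2h cells (adjusted p = 0.527 and 0.237). None of the 3 changes passed. In dnBrg1 cells the call was gained when the line was fitted alone (adjusted p = 0.0339), with array weights (0.0406) and without either induced dnSnf2h array (0.0221 each). In dnSnf2h cells it was gained without induced replicate 1, with a change of 0.48 (adjusted p = 0.0207), and the change was 0.01 at its lowest over all settings.

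Wap encodes whey acidic protein, the main whey protein of mouse milk. Its 17 values ran from 4.85 to 5.49, and 15 of the 17 arrays lay above the receptor genes, by a narrow margin. It had 5.00 and 5.06 in induced dnBrg1 cells, against 5.11 and 5.16 in repressed ones. In dnChd4 cells it had 4.85 and 4.99 when induced, against 5.17 and 5.21 when repressed. In dnSnf2h cells it had 5.49 and 4.99 when induced, against 5.18 and 4.86 when repressed. The induced arrays lay below the repressed ones in dnBrg1 and dnChd4 cells, and the groups overlapped in dnSnf2h cells. Changes were -0.10, -0.27 and 0.22, with adjusted p of 0.744, 0.236 and 0.342. The difference between the dnChd4 and dnSnf2h inductions was -0.49 (95% interval -0.92 to -0.07), which did not pass limma's test after adjustment (adjusted p = 0.610). In the control line Wap had 5.26, 5.17 and 5.32 when induced, against 5.36 and 5.11 when repressed. Without induced dnSnf2h replicate 2 the change in dnSnf2h cells was 0.47 (adjusted p = 0.0336).

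Xdh encodes xanthine dehydrogenase, which works in purine breakdown in most tissues and in the mammary gland also holds the milk fat globule membrane together with butyrophilin. It fell on induction in all 3 dominant-negative lines. Xdh had 9.01 and 9.07 in induced dnBrg1 cells, against 9.54 and 9.45 in repressed dnBrg1 cells. It had 8.62 and 8.29 in induced dnChd4 cells, against 9.13 and 8.85 in repressed dnChd4 cells. It had 8.55 and 8.73 in induced dnSnf2h cells, against 9.21 and 9.17 in repressed dnSnf2h cells. In each line both induced arrays lay below both repressed arrays. Xdh fell by 0.46 in dnBrg1 cells (SE 0.122, 95% interval -0.72 to -0.20, 1.38-fold, adjusted p = 0.0191). The fall was 0.53 in dnChd4 cells (-0.79 to -0.27, 1.45-fold, adjusted p = 0.00613) and 0.55 in dnSnf2h cells (-0.81 to -0.29, 1.46-fold, adjusted p = 0.00543).

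The Xdh calls depended on single arrays. In dnBrg1 cells the call was lost when any of its 4 arrays was left out (adjusted p from 0.061 to 0.134). In dnChd4 cells it was lost without repressed replicate 1 (change -0.39, adjusted p = 0.0956) or induced replicate 2 (-0.37, 0.105). In dnSnf2h cells it was lost without induced replicate 1 (-0.46, adjusted p = 0.0635) and with array weights (0.0535). Over all settings the change stayed between -0.52 and -0.42 in dnBrg1 cells, -0.70 and -0.37 in dnChd4 cells, and -0.64 and -0.46 in dnSnf2h cells.

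Mfge8 encodes a secreted protein of the milk fat globule, also called lactadherin, that bridges phosphatidylserine on dying cells and lipid vesicles to integrins of phagocytes. It rose on induction in all 3 dominant-negative lines, opposite to Xdh. Mfge8 had 11.11 and 11.13 in induced dnBrg1 cells, against 10.59 and 10.64 in repressed dnBrg1 cells. It had 10.94 and 10.90 in induced dnChd4 cells, against 10.34 and 10.33 in repressed dnChd4 cells. It had 10.87 and 10.96 in induced dnSnf2h cells, against 10.33 and 10.37 in repressed dnSnf2h cells. Induced and repressed arrays did not overlap within or between these lines, since the lowest induced value was 10.87 and the highest repressed value 10.64. The share of all genes without overlap between these lines was not counted, and the shares within each line are given below. Mfge8 rose by 0.51 in dnBrg1 cells (SE 0.087, 95% interval 0.32 to 0.69, 1.42-fold, adjusted p = 0.00109). The rise was 0.59 in dnChd4 cells (0.40 to 0.77, 1.5-fold, adjusted p = 0.000244) and 0.57 in dnSnf2h cells (0.38 to 0.75, 1.48-fold, adjusted p = 0.000356). No array of these lines ended the Mfge8 calls when left out.

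Btn1a1 encodes butyrophilin, the membrane partner of xanthine dehydrogenase on the fat globule. Its 17 values ran from 4.09 to 4.69, on no array above the receptor genes. It had 4.14 and 4.11 in induced dnBrg1 cells, against 4.09 and 4.34 in repressed ones. In dnChd4 cells it had 4.24 and 4.21 when induced, against 4.33 and 4.48 when repressed. In dnSnf2h cells it had 4.30 and 4.28, against 4.28 and 4.36. The induced arrays lay below the repressed ones only in dnChd4 cells, and none of the changes (-0.09, -0.19 and -0.03) passed. In the control line it had 4.19, 4.51 and 4.69 when induced, against 4.63 and 4.65 when repressed.

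**Figure D2:**
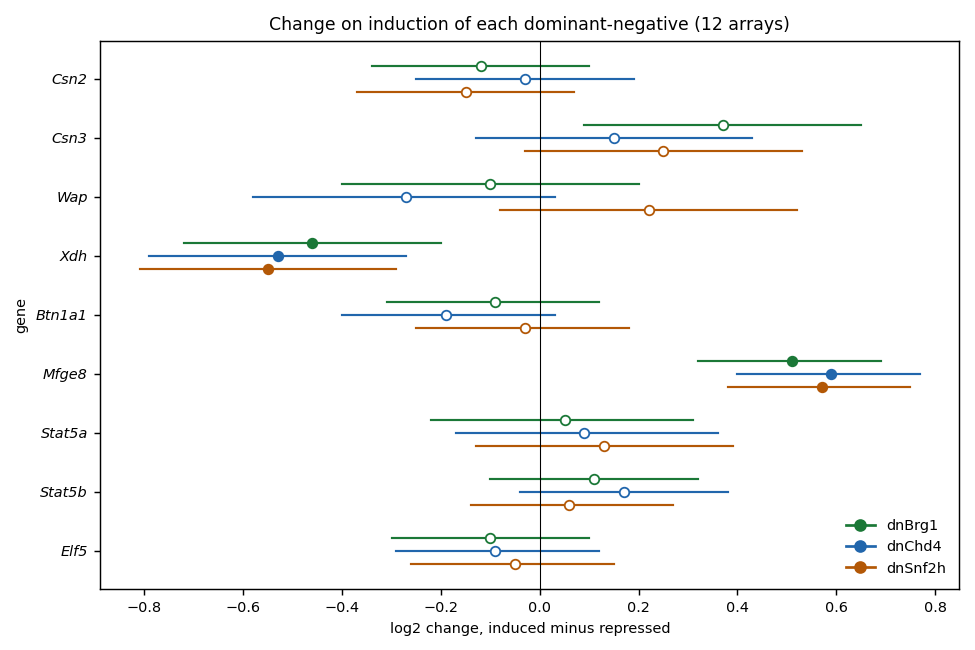
Log2 change (induced minus repressed) of each gene on induction of dnBrg1, dnChd4 and dnSnf2h, from the fit of 12 arrays; lines are 95% intervals, and filled points passed the test. Xdh (-0.46 to -0.55) and Mfge8 (0.51 to 0.59) are filled in each line, and no other gene is.

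Counted together, 2 of the 9 genes were called in each dominant-negative line, and in each line these were Xdh and Mfge8. The share of all genes called in the same direction in every line was not counted. The background was of similar size. In dnBrg1 cells 14.2% of all genes were called, 8.01% higher and 6.22% lower. In dnChd4 cells 18.0% were called, 11.2% higher and 6.82% lower, and in dnSnf2h cells 17.5%, 9.20% higher and 8.34% lower. The median size of change over the 9 genes was 0.11, 0.17 and 0.15 in dnBrg1, dnChd4 and dnSnf2h cells, against 0.12, 0.13 and 0.14 over all genes. Groups that did not overlap were also common: in dnBrg1 and in dnChd4 cells 3 of the 9 genes had all induced arrays above and 3 all below the repressed ones, and in dnSnf2h cells 1 and 2. Over all genes the shares were 23.6% above and 29.9% below in dnBrg1 cells, 27.2% and 32.9% in dnChd4 cells, and 22.3% and 24.1% in dnSnf2h cells. As a list the 9 genes therefore changed about as often as all genes.

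With all 17 arrays sharing 1 estimate of spread, none of the 9 genes was called in any of these 3 lines. The adjusted p was then 0.426 to 0.569 for Xdh and 0.382 to 0.456 for Mfge8, with the changes as before. That fit called 0.341% of all genes in dnBrg1 cells, 0.0953% in dnChd4 cells and 0.00502% in dnSnf2h cells. With 15 arrays Xdh and Mfge8 were called in all 3 lines again.

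The size of the response was compared directly between the remodelers. For Xdh the inductions differed by 0.07 between dnBrg1 and dnChd4 (95% interval -0.30 to 0.44), by 0.09 between dnBrg1 and dnSnf2h (-0.28 to 0.46) and by 0.02 between dnChd4 and dnSnf2h (-0.35 to 0.38). For Mfge8 the differences were -0.08 (-0.34 to 0.18), -0.06 (-0.32 to 0.20) and 0.02 (-0.24 to 0.28). None of the 9 genes was called in any of the 3 differences by limma, and 1 (Wap, above) had an unadjusted p under 0.05. Over all genes 1.27%, 0.632% and 0.130% were called. The Xdh intervals reach 0.46, the size of its fall in dnBrg1 cells.

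In the control line, removal of tetracycline switches on no dominant-negative. Taken by label, Xdh had 8.25, 7.69 and 7.68 in induced control cells, against 7.43 and 8.44 in repressed control cells. Mfge8 had 10.45, 11.18 and 11.27 in induced control cells, against 11.14 and 10.55 in repressed control cells. In both genes the library labelled control repressed replicate 1 lay with induced replicates 2 and 3, and the library labelled control induced replicate 1 lay with repressed replicate 2. By label the changes were -0.06 for Xdh (95% interval -0.58 to 0.46) and 0.12 for Mfge8 (-0.33 to 0.57). The limma fit of 17 arrays called 0 of 19938 genes (0%) for the control induction, with 845 at an unadjusted p under 0.05 and 0 of the 9 genes among them.

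Without these 2 libraries, which were set aside for their genome-wide values and not by a label, Xdh was lower by 0.75 in induced control cells (adjusted p = 0.000836) and Mfge8 higher by 0.68 (adjusted p = 0.000119). Stat5a was higher by 0.59 (adjusted p = 0.00614). That fit of 15 arrays called 26.6% of all genes. It leaves 1 repressed control array, whose spread is assumed to be that of the other groups, and it is not independent of the reason for which the libraries were set aside.

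When the control induction was subtracted from each dominant-negative induction, none of the 9 genes was called, and none had an unadjusted p under 0.05. By label, with 17 arrays, these differences were -0.40, -0.47 and -0.49 for Xdh and 0.39, 0.46 and 0.44 for Mfge8 in dnBrg1, dnChd4 and dnSnf2h cells. Their intervals were wide, for example -1.18 to 0.38 for Xdh and -0.28 to 1.05 for Mfge8 in dnBrg1 cells. The same fit called 0.0903%, 0.0401% and 0% of all genes, the last with 1121 genes at an unadjusted p under 0.05. With 15 arrays the differences changed sign, to 0.29, 0.22 and 0.20 for Xdh and -0.17, -0.09 and -0.11 for Mfge8, and again none was called. The 3 comparisons share the control arrays.

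**Figure D3:**
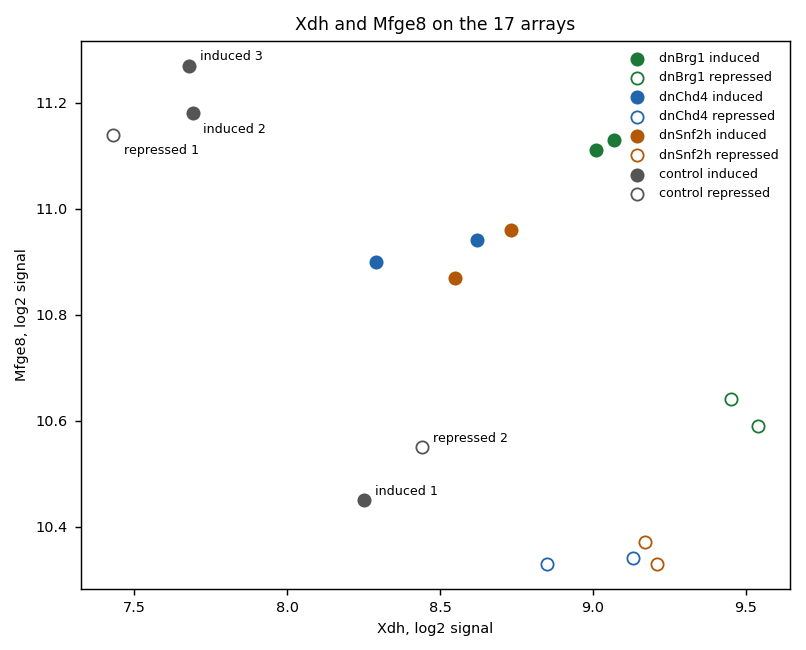
Log2 signals of Xdh (horizontal) and Mfge8 (vertical) on the 17 arrays, filled for induced and open for repressed cells. Induced dominant-negative arrays lie at 10.87 or more for Mfge8 and repressed ones at 10.64 or less, while the labelled control arrays are split across both levels.

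The lines also differed before induction. Repressed dnBrg1 cells had more Xdh than repressed dnChd4 cells, by 0.51 (SE 0.122, 95% interval 0.25 to 0.77, adjusted p = 0.0105), and more Mfge8, by 0.28 (SE 0.087, 0.10 to 0.47, adjusted p = 0.0401). These were 2 of the 9 genes, where 14.4% of all genes were called. The Xdh call was lost without repressed dnBrg1 replicate 1 (0.46, adjusted p = 0.0794) or repressed dnChd4 replicate 2 (0.37, 0.167). The Mfge8 call was lost without any of the 8 arrays of these 2 lines (adjusted p from 0.0619 to 0.194). Stat5a was 0.37 higher (adjusted p = 0.0586), a difference that passed under 6 alternatives, among them without repressed dnChd4 replicate 1 (0.58, 0.0106) and without either repressed dnSnf2h array (0.0429 each). Between repressed dnBrg1 and dnSnf2h cells none of the 9 genes was called, 3 had an unadjusted p under 0.05, and 14.3% of all genes were called. Csn3 was -0.38 there (adjusted p = 0.0698) and passed without either induced dnSnf2h array (0.021 each), and Mfge8 was 0.27 (0.054) and passed with 15 arrays (0.0467), with the dimmest genes removed (0.0441) and with trended, robust eBayes (0.0188). Between repressed dnChd4 and dnSnf2h cells none was called either, with 0.0150% of all genes called.

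Ordered by group mean, Xdh was highest in repressed dnBrg1 cells (9.50 ± 0.06, SD, n = 2), then repressed dnSnf2h (9.19 ± 0.03), induced dnBrg1 (9.04 ± 0.04), repressed dnChd4 (8.99 ± 0.20), induced dnSnf2h (8.64 ± 0.12) and induced dnChd4 cells (8.46 ± 0.23). Repressed control (7.93 ± 0.71) and induced control cells (7.87 ± 0.32, n = 3) came last. Induced dnBrg1 and repressed dnChd4 cells did not differ beyond their spread, and the last 4 groups did not differ beyond it from each neighbour among themselves. The gap of 0.35 between repressed dnChd4 and induced dnSnf2h cells was larger than the spread. The dominant-negative lines had 1.07 more Xdh than the control line (SE 0.143, 95% interval 0.76 to 1.38, 2.09-fold, adjusted p = 0.000234), and 0.91 more with 15 arrays. Every dominant-negative array but induced dnChd4 replicate 2, at 8.29, lay above the highest control array, at 8.44.

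Btn1a1 was lower in the dominant-negative lines by 0.29 (95% interval -0.45 to -0.13, adjusted p = 0.0114), although all its values lay at the level of the receptor genes. With Csn3 and Xdh this made 3 of the 9 genes, against 32.0% of all genes. With 15 arrays, which leave 1 repressed control array, the differences were -0.18 for Mfge8, 0.36 for Stat5a and 0.28 for Elf5. Stat5a was 0.39 without the library labelled control repressed replicate 1, which also leaves 1 repressed control array. Leaving out only the library labelled control induced replicate 1 gave calls for Mfge8 (-0.33, adjusted p = 0.00864) and Elf5 (0.29, 0.00115). That setting called 7483 of all 19938 genes. The Elf5 values on the control arrays left there were 4.48, 4.55, 4.73 and 4.79. These lay below the lowest array cut of 4.81, so the Elf5 difference is one from signals within the receptor genes. Stat5a was also called without repressed dnChd4 replicate 2 (0.28, 0.0365) and with median centring (0.31, 0.0219), and array weights gave calls for Mfge8 (-0.31, 0.0373) and Elf5 (0.27, 0.047).

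The genes whose pattern over the 17 arrays was most like that of Xdh were Mdc1, Tmem109 and Atad5, at root mean square differences of 0.163, 0.163 and 0.173. Mdc1 encodes a mediator of the DNA damage checkpoint. It had 7.91 and 7.89 in induced dnBrg1 cells, against 8.47 and 8.31 in repressed ones, and 6.26 to 7.36 in the control line. Atad5 encodes a factor that unloads the replication clamp PCNA. It had 7.07 and 7.17 in induced dnChd4 cells, against 7.75 and 7.74 in repressed ones, and 6.32 to 7.08 in the control line.

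The STAT5 genes had plain signals on every array and changed little. Stat5a lies between Stat5b and Stat3 on chromosome 11, and the Stat5 genes encode the transcription factors through which prolactin acts on milk genes, with STAT5A the more important in the mammary gland. Stat5a had 7.73 and 7.58 in induced dnBrg1 cells, against 7.64 and 7.59 in repressed ones. It had 7.29 and 7.37 in induced dnChd4 cells, against 7.44 and 7.03 in repressed ones, and 7.53 and 7.65 in induced dnSnf2h cells, against 7.38 and 7.54 in repressed ones. Induced and repressed arrays overlapped in each line. The changes were 0.05 (95% interval -0.22 to 0.31), 0.09 (-0.17 to 0.36) and 0.13 (-0.13 to 0.39), and none passed.

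Stat5b was the steadier gene: its 17 values ran from 7.80 to 8.13 and its group means spanned 0.17. It had 8.04 and 8.01 in induced dnBrg1 cells, against 8.0 and 7.83 in repressed ones. It had 8.09 and 8.06 in induced dnChd4 cells, against 7.98 and 7.83 in repressed ones, and 8.11 and 8.0 in induced dnSnf2h cells, against 8.02 and 7.97 in repressed ones. The induced arrays lay above the repressed ones in dnBrg1 and dnChd4 cells, and the changes of 0.11, 0.17 and 0.06 did not pass (adjusted p = 0.569, 0.295 and 0.731). In the control line, Stat5a had 7.29, 7.47 and 7.35 when induced, against 7.39 and 6.82 when repressed. Stat5b had 7.84, 8.09 and 8.01 when induced there, against 8.13 and 7.80 when repressed, so the groups overlapped for both genes.

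Elf5 encodes an ETS factor that directs luminal progenitors to the secretory fate. Its 17 values ran from 4.48 to 5.23 and exceeded the receptor genes on 9 arrays. It had 4.89 and 4.81 in induced dnBrg1 cells, against 4.98 and 4.91 in repressed ones. In dnChd4 cells it had 4.81 and 4.89 when induced, against 4.99 and 4.88 when repressed, and in dnSnf2h cells 5.01 and 4.94, against 4.95 and 5.10. Its changes of -0.10, -0.09 and -0.05 did not pass, and its groups overlapped except in dnBrg1 cells. In the control line Elf5 had 5.23, 4.48 and 4.55 when induced, against 4.73 and 4.79 when repressed, so the library labelled control induced replicate 1 held the highest value of all 17.

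The rest of the pathway was read from 6 lists of genes. With 17 arrays only Cd36 and Tbx3 in dnBrg1 cells remained called among the 43 changes of list genes named by rule, and what follows is from the 12 arrays of the dominant-negative lines. Of 20 genes of prolactin, JAK2 and STAT5 signalling, 19 were measured. In each dominant-negative line 4 of the 19 rose and 3 fell, against the shares of all genes given above. Ghr, Stat3, Ptpn1 and Ptpn11 rose in each line and Ccnd1 fell in each. The median change over the list was -0.08, -0.04 and 0.01 in dnBrg1, dnChd4 and dnSnf2h cells, against -0.03, -0.03 and -0.01 over all genes. Of the 19 genes 16 lay above the receptor genes on all arrays, and Erbb4, an alternative activator of STAT5, on none.

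Ghr encodes the growth hormone receptor, which like the prolactin receptor signals through JAK2 and STAT5. It had 9.13 and 9.17 in induced dnBrg1 cells, against 8.22 and 8.18 in repressed ones. It had 7.87 and 7.86 in induced dnChd4 cells, against 6.93 and 6.92 in repressed ones, and 7.86 and 8.02 in induced dnSnf2h cells, against 6.94 and 7.07 in repressed ones. Ghr rose by 0.95, 0.94 and 0.94 (SE 0.092 each, adjusted p = 1.38e-05, 8.28e-06 and 1.17e-05). Ghr also differed between lines before induction: repressed dnBrg1 cells had 1.28 more than repressed dnChd4 cells (adjusted p = 4.94e-07) and 1.2 more than repressed dnSnf2h cells (1.03e-06).

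Stat3 encodes the factor that drives involution of the gland after weaning. It had 9.28 and 9.32 in induced dnBrg1 cells, against 8.49 and 8.33 in repressed ones. It had 9.46 and 9.44 in induced dnChd4 cells, against 8.45 and 8.10 in repressed ones, and 9.43 and 9.47 in induced dnSnf2h cells, against 8.36 and 8.47 in repressed ones. It rose by 0.89, 1.18 and 1.03 (SE 0.113 each, adjusted p = 0.00011, 6.45e-06 and 2.79e-05). On the control arrays Stat3 had 7.91, 9.61 and 9.59 when induced, against 9.52 and 7.96 when repressed, the split seen for Mfge8. Without the 2 libraries in doubt, induced control cells were 1.64 higher for Stat3 and 1.39 higher for Ghr.

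Jak2, the kinase between the receptor and STAT5, ran from 9.22 to 10.05. It changed by -0.26, -0.41 and -0.25 in dnBrg1, dnChd4 and dnSnf2h cells, none past the test (adjusted p = 0.281, 0.0583 and 0.269). Ptpn1 and Ptpn11 encode tyrosine phosphatases, PTP1B and SHP2, and rose by 0.34 to 0.65. Of the STAT5-induced feedback genes, Cish and Socs2 were called in none of the 3 lines, Socs1 fell in dnSnf2h cells (-0.42, adjusted p = 0.0404) and Socs3 in dnChd4 cells (-0.42, adjusted p = 0.0217). Nr3c1, which encodes the glucocorticoid receptor, ran from 8.90 to 9.44.

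Ccnd1 encodes cyclin D1, which is needed for the outgrowth of alveoli in pregnancy. It had 10.84 and 10.82 in induced dnBrg1 cells, against 11.68 and 11.67 in repressed ones, and fell by 0.85 (SE 0.142, adjusted p = 0.000969). It fell by 0.52 in dnChd4 cells (adjusted p = 0.0172) and by 0.68 in dnSnf2h cells (0.00347). The dnChd4 call was lost without repressed replicate 2 (-0.36, adjusted p = 0.236), induced replicate 1 (-0.46, 0.142) or induced replicate 2 (-0.58, 0.0516), and the dnSnf2h call without induced replicate 1 (-0.45, 0.0582). Cav1, a membrane scaffold that holds JAK2 in check, fell by 0.77 in dnSnf2h cells (adjusted p = 0.000139) and by 0.45 in dnChd4 cells (0.00584). The dnChd4 call was lost without repressed replicate 1 (-0.36, adjusted p = 0.0849) or induced replicate 1 (-0.45, 0.0501). Stat6 fell by 0.36 in dnBrg1 cells (adjusted p = 0.0194), a call lost without repressed replicate 1 (0.155) or either induced array (0.0958 and 0.14) and with median centring (0.0605).

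Of 15 lactation transcription factors, all measured, 0 rose and 4 fell in dnBrg1 cells, 2 rose and 2 fell in dnChd4 cells, and 0 rose and 3 fell in dnSnf2h cells. Their median change was -0.06, -0.11 and -0.06, against the same -0.03, -0.03 and -0.01 over all genes. Over all genes 14.2% were called in dnBrg1, 18.0% in dnChd4 and 17.5% in dnSnf2h cells. Nfic, a nuclear factor I gene, fell in each line, by 0.75, 0.60 and 0.55 (SE 0.108 each, adjusted p = 0.000313, 0.00104 and 0.00218). Its relatives Nfia and Nfib fell in dnBrg1 cells by 0.57 and 0.5. Tbx3, a T-box gene of early mammary development, had 7.53 and 7.37 in induced dnBrg1 cells, against 8.56 and 8.38 in repressed ones. It fell by 1.02 (SE 0.118, adjusted p = 5.57e-05), and the fall differed from the change in dnChd4 cells (-1.14, adjusted p = 0.00208) and in dnSnf2h cells (-0.96, adjusted p = 0.013). Cebpb, which encodes a factor needed for alveolar differentiation, had 7.58 and 7.56 in induced dnChd4 cells, against 8.05 and 8.03 in repressed ones. Cebpb fell by 0.47 there (adjusted p = 0.00527) and by 0.51 in dnSnf2h cells (0.00346), and had 7.85 and 7.68 in induced dnBrg1 cells, against 7.64 and 7.73 in repressed ones.

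Id2, which encodes an inhibitor of helix-loop-helix factors that alveoli need, had 8.34 and 8.66 in induced dnChd4 cells, against 7.41 and 7.67 in repressed ones. It rose by 0.96 (SE 0.163, adjusted p = 0.000745), and the dnBrg1 change differed from this by -1.02 (adjusted p = 0.0452). That difference was lost without any of the 8 arrays of these lines (0.0658 to 0.19). Gata3, a luminal cell fate gene, rose by 0.58 in dnChd4 cells (adjusted p = 0.0123), a call lost without either repressed array (0.0756 and 0.069) or induced replicate 1 (0.097). Pgr, Ehf and Tfap2c lay above the receptor genes on no array.

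Of 23 genes of milk fat synthesis and lipid droplets, all measured, 2 rose and 0 fell in dnBrg1 cells, 2 rose and 0 fell in dnChd4 cells, and 1 rose and 2 fell in dnSnf2h cells. Their median change was -0.04, 0.10 and -0.06 in the same order of lines. In that order, 14.2%, 18.0% and 17.5% of all genes were called. Of the 23 genes 17 lay above the receptor genes on all arrays. Acss2, which makes acetyl-CoA from acetate, had 8.23 and 8.0 in induced dnChd4 cells, against 7.04 and 6.55 in repressed ones, and rose by 1.32 (SE 0.158, adjusted p = 4.15e-05). It rose by 0.66 in dnSnf2h cells (adjusted p = 0.00869) and by 0.52 in dnBrg1 cells (0.0382). The dnBrg1 call was lost without repressed replicate 2 (0.308) or either induced array (0.212 and 0.121), and the dnSnf2h call without induced replicate 2 (0.0981). Cd36, a fatty acid transporter and globule protein, had 5.91 and 5.98 in induced dnBrg1 cells, against 4.48 and 4.60 in repressed ones, and 3.22 to 3.56 on the arrays of every other line.

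Cd36 rose by 1.41 (SE 0.103, adjusted p = 1.25e-06), above the receptor genes on the 2 induced dnBrg1 arrays only. The other 15 arrays lay within the receptor genes, so this value and the differences that follow are differences of signal and not of known RNA levels. Its dnBrg1 change exceeded that in dnChd4 cells by 1.52 (adjusted p = 3.88e-05), that in dnSnf2h cells by 1.29 (0.000637) and that in the control line by 1.40 (0.00151). In dnSnf2h cells Fasn, fatty acid synthase, fell by 0.44 (adjusted p = 0.0129) and Insig1, which retains the SREBP proteins in the endoplasmic reticulum, by 0.37 (0.0259). The Fasn call was lost without repressed replicate 2 (0.0732) or induced replicate 1 (0.159), and the Insig1 call without either repressed array (0.0528 and 0.0721) or induced replicate 1 (0.262). Srebf1, which encodes SREBP1, rose by 0.36 in dnChd4 cells (adjusted p = 0.0184), a call lost without repressed replicate 2 (0.176) or either induced array (0.154 and 0.0578).

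**Figure D4:**
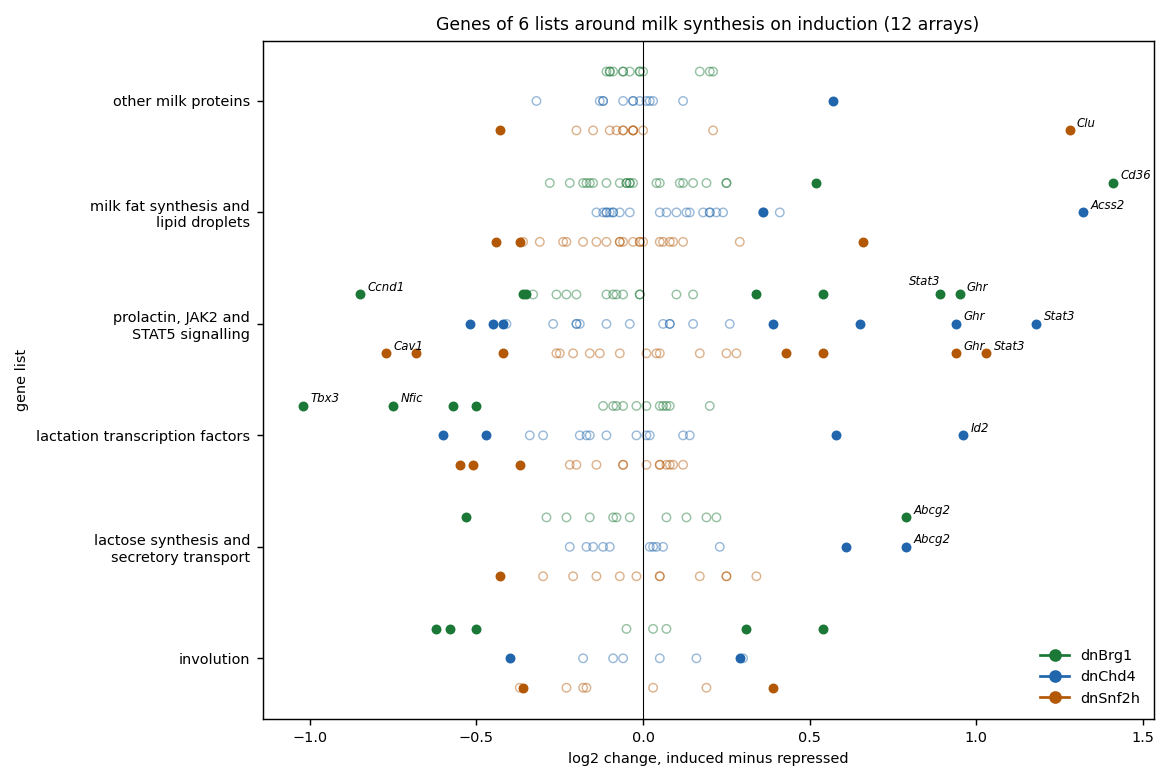
Log2 change (induced minus repressed, horizontal) of every measured gene of 6 lists in the dnBrg1, dnChd4 and dnSnf2h lines, from the fit of 12 arrays; filled points passed the test, and names mark passing genes beyond 0.7. Most points of each list are open, and the largest changes are Cd36 in dnBrg1 (1.41), Acss2 in dnChd4 (1.32) and Clu in dnSnf2h cells (1.28).

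Of 15 other milk proteins 13 were measured, of which 8 lay above the receptor genes on no array and 3, Folr1, Clu and Trf, on all. None changed in dnBrg1 cells by limma, 1 rose and 0 fell in dnChd4 cells, and 1 rose and 1 fell in dnSnf2h cells. The median change was -0.04, -0.03 and -0.06. Among all genes the called shares in these 3 lines were 14.2%, 18.0% and 17.5%. Clu, clusterin, a secreted chaperone found in milk and raised in involution, had 7.95 and 8.18 in induced dnSnf2h cells, against 6.83 and 6.75 in repressed ones, and rose by 1.28 (SE 0.096, 2.42-fold, adjusted p = 1.39e-06). It rose by 0.57 in dnChd4 cells (adjusted p = 0.000753), and the dnBrg1 change differed from the dnSnf2h change by -1.11 (adjusted p = 0.0013). Folr1, a folate receptor, fell by 0.43 in dnSnf2h cells (adjusted p = 0.0122), a call lost without repressed replicate 2 (0.0757) or induced replicate 2 (0.106).

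Of 12 genes of lactose synthesis and secretory transport, 1 rose and 1 fell in dnBrg1 cells, 2 rose and 0 fell in dnChd4 cells, and 0 rose and 1 fell in dnSnf2h cells, with medians of -0.06, 0.03 and 0.01. The background of called genes was 14.2%, 18.0% and 17.5% in the same order. Abcg2, the transporter that concentrates riboflavin and drugs in milk, had 9.15 and 9.09 in induced dnBrg1 cells, against 8.48 and 8.18 in repressed ones, and 9.06 and 9.01 in induced dnChd4 cells, against 8.29 and 8.21 in repressed ones. It rose by 0.79 in each (adjusted p = 0.000445 and 0.000298). Aqp5, a water channel of epithelia that fades in lactation, fell by 0.53 in dnBrg1 cells (adjusted p = 0.00326) and by 0.43 in dnSnf2h cells (0.0108). These calls were lost without repressed dnBrg1 replicate 2 (0.0504) and without induced dnSnf2h replicate 2 (0.0895). Ugp2, which makes the UDP-glucose that feeds lactose synthesis, rose by 0.61 in dnChd4 cells (adjusted p = 0.00348).

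Of 8 involution genes, 2 rose and 3 fell in dnBrg1 cells, and 1 rose and 1 fell in dnChd4 and in dnSnf2h cells, with medians of -0.01, -0.01 and -0.17. The shares of all genes called were 14.2% in dnBrg1, 18.0% in dnChd4 and 17.5% in dnSnf2h cells. Ctsl, a lysosomal protease, had 11.14 and 11.04 in induced dnBrg1 cells, against 10.56 and 10.54 in repressed ones, and rose by 0.54 (adjusted p = 0.00235). It rose by 0.39 in dnSnf2h cells (0.0147), a call lost without repressed replicate 1 (0.0788) or induced replicate 2 (0.136). Lif, the cytokine that activates STAT3 when milk stays in the gland, fell in each line, by 0.58, 0.40 and 0.36 (adjusted p = 0.00186, 0.0144 and 0.0296). Its dnChd4 call was lost without repressed replicate 2 (0.167) or either induced array (0.123 and 0.0512), and its dnSnf2h call without repressed replicate 1 (0.0929) or induced replicate 2 (0.187). Bcl3 fell by 0.62 in dnBrg1 cells (adjusted p = 0.00168). In dnSnf2h cells the calls of Aqp5, Fasn, Insig1, Folr1, Ctsl and Lif were also lost with the line fitted alone and with array weights, that of Acss2 with array weights and that of Cebpb with the line alone. Ctsb rose by 0.31 in dnBrg1 cells (0.0401) and by 0.29 in dnChd4 cells (0.0459), and each call was lost without any of the 8 arrays of these lines.

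The control induction without the 2 libraries in doubt gave calls in the same direction for several of these list genes. It was 1.86 for Acss2, 1.16 for Abcg2 and 1.06 for Clu, and -1.28 for Ccnd1, -0.98 for Cav1, -0.90 for Cebpb, -0.62 for Nfic and -1.48 for Aqp5. It was also 0.43 for Ugp2, -0.72 for Fasn, -0.45 for Insig1 and -0.38 for Stat6. It was not called for Cd36 (-0.03), Tbx3 (0.22), Id2 (0.31), Gata3 (0.28), Bcl3 (-0.22), Lif (-0.33), Ctsl (0.19), Ctsb (0.18), Srebf1 (0.17) or Folr1 (-0.13). Of these, Cd36 had a dnBrg1 induction that differed from the control induction by label, as given above.

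**Figure D5:**
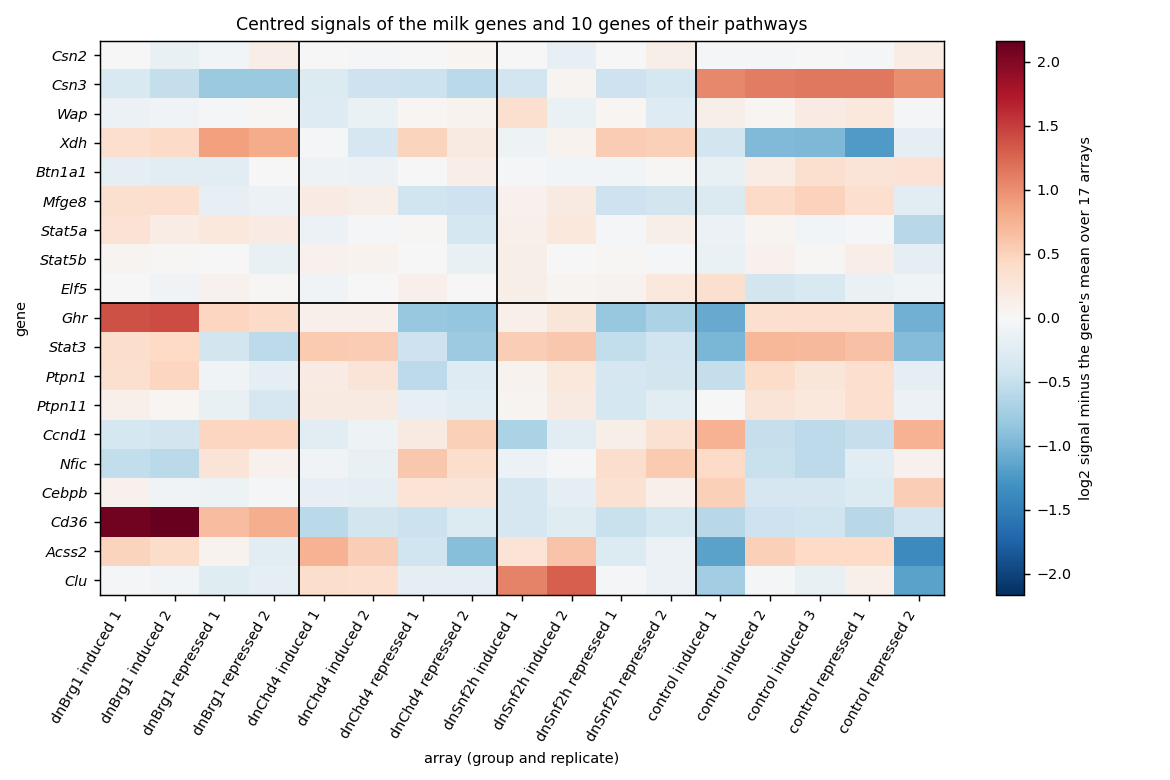
Log2 signal of 9 milk genes (above the line) and 10 genes of their pathways, each minus its mean over the 17 arrays, with induced left of repressed arrays in each line. In the control block, induced replicate 1 and repressed replicate 2 share a pattern, and repressed replicate 1 shares that of induced replicates 2 and 3, most plainly for Xdh, Mfge8, Ghr, Stat3 and Acss2.

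Markers were read to place the cells. Of 9 luminal epithelial markers, 6 lay above the receptor genes on all arrays, among them Krt8 (mean 6.29) and Krt18 (5.68), while Epcam (4.12) and Krt19 (4.58) did so on none. All 11 mesenchymal and fibroblast markers did so on all arrays, among them Vim (12.71) and Col1a2 (11.90). Of 6 adipocyte markers, Plin1 and Cidec did so on all arrays, Pparg on 15, and Adipoq, Fabp4 and Lep on none. Of 6 macrophage markers, Cd68 and Cd14 did so on all arrays, Lyz2 on 14, and Ptprc, Adgre1 and Csf1r on none. The mean log2 signal of the 9 luminal markers lay between 5.30 and 5.44 in induced and between 5.22 and 5.47 in repressed dominant-negative cells. On the control arrays, taken by label, it was 5.41 to 5.56 when induced and 5.59 to 5.65 when repressed. Of the 9 markers, Krt7 rose in dnSnf2h cells, where 17.5% of all genes were called. None was called in dnBrg1 or dnChd4 cells, where 14.2% and 18.0% of all genes were.

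Of the 11 mesenchymal markers, 0 rose and 8 fell in dnBrg1 cells, where 6.22% of all genes fell. In dnSnf2h cells 0 rose and 5 fell, where 8.34% of all genes fell. In dnChd4 cells 1 rose and 1 fell, a share near the 18.0% of all genes called there. Their mean log2 signal was 8.68 to 8.75 in induced dnBrg1 cells, against 9.31 to 9.35 in repressed ones, 9.09 to 9.17 in induced dnChd4 cells, against 9.21 to 9.33, and 8.75 to 9.01 in induced dnSnf2h cells, against 9.18 to 9.31. On the control arrays, taken by label, that mean was 8.58 to 9.02 when induced and 8.64 to 8.96 when repressed. With 17 arrays 2 of the 11 mesenchymal markers were called in dnBrg1 cells, where 0.341% of all genes were. In that fit 0 were called in dnChd4 and in dnSnf2h cells. Of 8 basal and myoepithelial markers, Krt14 fell in each line, Acta2 and Tagln rose in dnChd4 and dnSnf2h cells, and Cnn1 rose in dnChd4 cells. Of all genes, 14.2% were called in dnBrg1, 18.0% in dnChd4 and 17.5% in dnSnf2h cells. None of the 6 adipocyte markers was called in any line. Of the 6 macrophage markers, 1 rose and 1 fell in dnBrg1 and in dnSnf2h cells, and 2 rose and 0 fell in dnChd4 cells. The shares of all genes are those just given. Lyz2 rose in each line, by 1.34, 1.74 and 1.36 in dnBrg1, dnChd4 and dnSnf2h cells. Cd68 fell by 0.48 in dnBrg1 cells and rose by 1.03 in dnChd4 cells, and Cd14 fell by 0.70 in dnSnf2h cells. With 17 arrays 1 basal and 1 macrophage marker were called, each in dnChd4 cells, where 0.0953% of all genes were. The part of these marker changes in the changes of Xdh and Mfge8 was not tested. In bulk samples, fewer cells of a type and less RNA per cell cannot be told apart.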

How the data were processed

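The series holds 17 arrays of 3134 cells. The deposited table holds for each array 1 value per probe set in log2 units, going by their range of 2.02 to 14.86. Per the submitters' processing notes the authors used Affymetrix Expression Console. How that software was set, its version and the build are likewise not given in the sources used here. The deposited log2 values were used without further scaling.

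Of 35557 probe sets, 21789 had 1 gene symbol, 1621 several and 12147 none in the platform annotation, and 999 genes had several singly named probe sets, of which the brightest was kept. The 19938 genes were fitted with limma 3.58.1 in R 4.3.3 (lmFit with 1 mean per group, contrasts.fit, eBayes), with Benjamini-Hochberg adjustment over all genes and a threshold of 0.05. Array number limits the precision. In simulated dnBrg1 data the only group differences were 100 genes changed by 0.5 and 100 changed by 1. Of these, 30 and 93 were called, with 4 unchanged genes called among 19938. In the deposited dnBrg1 data 14.2% of genes were called, and the adjusted threshold is less strict when more genes change. The simulated shares are therefore not the rate of detection in the data.

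The members and gene lists were chosen with earlier results of these data known. Besides the 9 members, genes were named as the 2 largest changes per direction, list and line among those called. Ptpn1, Ptpn11, Jak2, the Socs genes, Cish, Nr3c1 and genes named only as absent or as markers were picked after their values were seen. The comparison of the dominant-negative lines with the control line was also added then. Patterns most like a member's were sought where group means spanned more than 1. Alternatives were other sets of arrays, array weights, quantile normalization, a replicate block, median centring, all probe sets, eBayes with trend and robust settings, and leaving out the dimmest 30% of genes. Every array was also left out in turn.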

Additional observations from a re-analysis of the deposited data

Results flagged for a closer look

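Within the pathway lists, 7 differences between inductions passed limma's test of the difference itself. The Cd36 induction in dnBrg1 cells exceeded that in dnChd4 cells by 1.52, that in dnSnf2h cells by 1.29 and that in control cells by 1.40, the last lost with the lines alone (adjusted p = 0.0571) and with the replicate block (0.0557). Cd36 lay within the presumed silent receptor genes on all but the 2 induced dnBrg1 arrays, so these are differences of signal. Tbx3 changed in dnBrg1 cells by -1.14 relative to dnChd4 cells and by -0.96 relative to dnSnf2h cells. The second was lost without repressed dnBrg1 replicate 1 (0.0798), induced dnBrg1 replicate 2 (0.114) or induced dnSnf2h replicate 2 (0.0613), and with the lines alone (0.0583). Clu changed in dnBrg1 cells by -1.11 relative to dnSnf2h cells, and Id2 by -1.02 relative to dnChd4 cells. The Id2 difference was also lost with quantile normalization (0.0526), median centring (0.0744) and all probe sets (0.0501). None of the 9 measured milk genes and lactation regulators differed between inductions by this test.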

How the results depend on the processing

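The 9 genes kept their direction wherever a call was made: of the tested alternatives, 2855 results kept their side of the threshold, 28 lost and 32 gained a call, and 0 reversed. For the named pathway genes, 971 kept it and 129 lost it, 45 of these with 17 arrays. The limit in most comparisons was 2 arrays per group. The cause of the following shifts was not tested, beyond fewer samples or fewer genes where the setting itself removes them. With 17 arrays the calls over all genes numbered 68, 19 and 1 for the dnBrg1, dnChd4 and dnSnf2h inductions, 26, 7 and 8 for the differences dnBrg1-dnChd4, dnBrg1-dnSnf2h and dnChd4-dnSnf2h, and 804, 775 and 0 for the same pairs of repressed lines, where the fit of 12 arrays gave 2839, 3590, 3497, 254, 126, 26, 2875, 2857 and 3. With 15 arrays the control induction gave 5310, and the dnBrg1, dnChd4 and dnSnf2h inductions minus it gave 1386, 163 and 414, against 0, 18, 8 and 0. With the lines of a contrast alone, counts were 1446 for the dnSnf2h induction, 445 and 65 for dnBrg1 minus dnChd4 and minus dnSnf2h, 0 for repressed dnChd4 minus dnSnf2h, and 4 and 3 for dnBrg1 and dnChd4 minus control. With array weights they were 2063, 550, 77, 1451 (repressed dnBrg1 minus dnSnf2h) and 0 (repressed dnChd4 minus dnSnf2h). Quantile normalization and median centring gave 1 each for the last, and removal of dim genes 11 for dnBrg1 minus control. Replicate numbers are shared between groups, but same-numbered arrays deviated together at r of 0.016, 0.135 and 0.313 in the dnBrg1, dnChd4 and dnSnf2h lines and -0.743 in the control line, where replicate 1 of each group is a library in doubt. The numbers were therefore not taken to pair the arrays, and whether same-numbered arrays share a culture or day is not given by the labels. With the replicate block the inductions gave 3538, 4241 and 4239, dnBrg1 and dnChd4 minus control 0 and 1, and repressed dnChd4 minus dnSnf2h 1. The block also gave Csn3 in dnBrg1 cells (adjusted p = 0.0335) and Wap in dnChd4 cells (0.0475) a call, and took that of Mfge8 between repressed dnBrg1 and dnChd4 cells (0.0553), as 17 arrays (0.718) and median centring (0.0951) did. Leaving out each array in turn gave 1353 to 3423, 1926 to 4180 and 2342 to 4204 calls for the dnBrg1, dnChd4 and dnSnf2h inductions, 106 to 382, 46 to 265 and 15 to 175 for their differences, 1345 to 3508, 1784 to 3377 and 0 to 500 for the repressed lines, 0 to 4 for the control induction, 6 to 60, 5 to 16 and 0 to 19 for inductions minus control, and 5259 to 7483 for the dominant-negative lines minus the control line. The lowest of the first 3 came without induced dnBrg1 replicate 2, repressed dnChd4 replicate 2 and induced dnSnf2h replicate 1.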
